A study of Mus musculus with 12 samples.

Results

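Macrophage genes were followed in the ventricles of mice kept in low oxygen. They are 9 of the 39210 genes in the deposited table and were chosen by name, by a rule that uses no measured value, although earlier results of these data were known. Cd68, Adgre1 and Csf1r mark macrophages in general. Lyve1, Timd4 and Mrc1 are used as markers of macrophages that live in the heart muscle, and Ccr2, Trem2 and Gpnmb of macrophages that come from blood monocytes or take up lipid and debris. All 9 passed the filter on low counts, as did 13960 genes in all.

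RNA came from frozen ventricles of male and female C57BL/6 mice, with 3 libraries in each of 4 groups. The male and the female normoxia group spent 4 weeks in air with 20.9% oxygen. The male and the female hypoxia group lived in a chamber whose oxygen went down in daily steps of 1% over 14 days, and then stayed at 7% for 2 weeks. No allele or drug was used, the labels give no age, and they do not tell the left ventricle from the right. Nor do they say whether each library is its own animal. The p-values therefore cover the spread among these libraries alone, and that spread may be technical.

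Library totals ran from 14915830 to 19397851 estimated counts. The summed level of 8 ventricular cardiomyocyte markers lay between 43020 and 64430 CPM (counts scaled to library size) in all 12 libraries, so the labelled tissue carried its own markers. Some libraries stood apart. Summed CPM of 7 atrial markers was 505.5, 1732 and 972.9 in male hypoxia replicates 1 to 3 and 196.2, 487.4 and 1068 in the female hypoxia replicates, against 94.87 to 277.9 in the 6 normoxia libraries. Female normoxia replicate 3 held 151.8 CPM of the immediate early gene Nr4a1, against at most 20.3 CPM in the other libraries. Counts of genes are therefore also given without male hypoxia replicates 2 and 3. In that fit the lone male hypoxia library is assumed to vary like the other groups. Fewer of all genes were called in it as well, as given at the end. A lost call or a lower count there does not by itself mean a smaller difference. The atrial sum of female hypoxia replicate 3 was above that of male hypoxia replicate 3, so a fit without all 3 of these libraries was added after the data were seen.

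The adult heart holds macrophages between its muscle cells throughout life. Part of this population was seeded before birth and renews itself in place. It depends on the receptor CSF1R and is known for clearing debris and for supporting conduction and vessels. Monocytes enter from the blood through the chemokine receptor CCR2, in larger numbers after injury or strain, and can become macrophages. Macrophages loaded with lipid or dead cells commonly switch on TREM2, a receptor for lipids and lipoproteins, and the glycoprotein GPNMB. PU.1 is the transcription factor that defines the lineage, and its binding sites hold the core GAGGAA.

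For the 3 members whose average rise was called under at least 24 of 25 alternatives (below), the 250 bases before the annotated start are shown, 5′ to 3′ on the gene's strand. Capitals mark matches to the PU.1 core GAGGAA or its reverse complement TTCCTC and, in Trem2, to the HIF core GCGTG, read here as its reverse complement CACGC. The sequences are from RefSeq on GRCm38.p6, at chr17:48346151-48346400 (plus strand) for Trem2, chr11:69666171-69666420 (minus strand) for Cd68 and chr2:14229164-14229413 (plus strand) for Mrc1.
Trem2: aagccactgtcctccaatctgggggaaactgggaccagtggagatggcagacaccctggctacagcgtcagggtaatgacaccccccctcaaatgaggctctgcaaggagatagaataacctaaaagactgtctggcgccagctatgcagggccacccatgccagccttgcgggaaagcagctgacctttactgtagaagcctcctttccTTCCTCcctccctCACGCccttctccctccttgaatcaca
Cd68: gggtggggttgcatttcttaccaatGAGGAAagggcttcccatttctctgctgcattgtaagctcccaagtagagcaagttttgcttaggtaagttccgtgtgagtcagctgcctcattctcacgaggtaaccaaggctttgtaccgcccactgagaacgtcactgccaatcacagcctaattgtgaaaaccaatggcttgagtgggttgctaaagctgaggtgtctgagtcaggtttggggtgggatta
Mrc1: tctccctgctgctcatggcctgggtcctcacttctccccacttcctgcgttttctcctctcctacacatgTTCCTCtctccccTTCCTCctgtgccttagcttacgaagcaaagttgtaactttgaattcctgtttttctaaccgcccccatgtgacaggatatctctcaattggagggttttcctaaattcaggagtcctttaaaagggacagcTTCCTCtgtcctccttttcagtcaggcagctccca

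The PU.1 core occurred once before Trem2 (starting at -40), once before Cd68 (at -225) and at 3 places before Mrc1 (at -180, -167 and -35), counted in bases from the start. Of 32536 RefSeq promoters of the same length 23.4% held this core, and 28.3% held the HIF core GCGTG that lies at -27 before Trem2. Sequences of 6 of the 9 members were used. The member search left out windows on a single chromosome, so a member lying there would be missing for that reason. The matched windows of Timd4, Ccr2 and Gpnmb held none of the motifs searched on both strands. Those were GAGGAA, the HIF cores ACGTG (16.7% of promoters) and GCGTG, the M-box TCATGTG (3.27%) and the CLEAR core CACGTGA (3.16%). ACGTG lies within CACGTGA. The matches describe letters and no binding was measured.

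Averaged over the sexes, 4 of the 9 macrophage genes rose in hypoxia and none fell: Trem2, Cd68, Mrc1 and Adgre1. Over all genes tested, 15.0% were called higher and 12.9% lower in this contrast. The members' median log2 fold change was 0.463, beside -0.00615 over all genes. In males 4 rose (Trem2, Gpnmb, Cd68 and Mrc1), where 8.47% of all genes were called higher and 7.10% lower, and the median was 0.731. In females only Trem2 rose by edgeR's test, where 3.97% of all genes were called higher and 2.02% lower, and the median was 0.187. Without male hypoxia replicates 2 and 3 the male log2 values were 2.26 (Trem2), 1.225 (Gpnmb), 1.787 (Cd68) and 1.142 (Mrc1). The fit with all libraries gave 2.04, 1.57, 1.33 and 0.97. Without female hypoxia replicate 3 as well, the average log2 values were 1.864 (Trem2), 1.188 (Cd68), 0.685 (Mrc1) and 0.446 (Adgre1). The calls that these fits lost in males and in females are counted at the end. In whole tissue, a change in the number of cells of a type and a change in RNA per cell cannot be told apart.

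**Figure D1:**
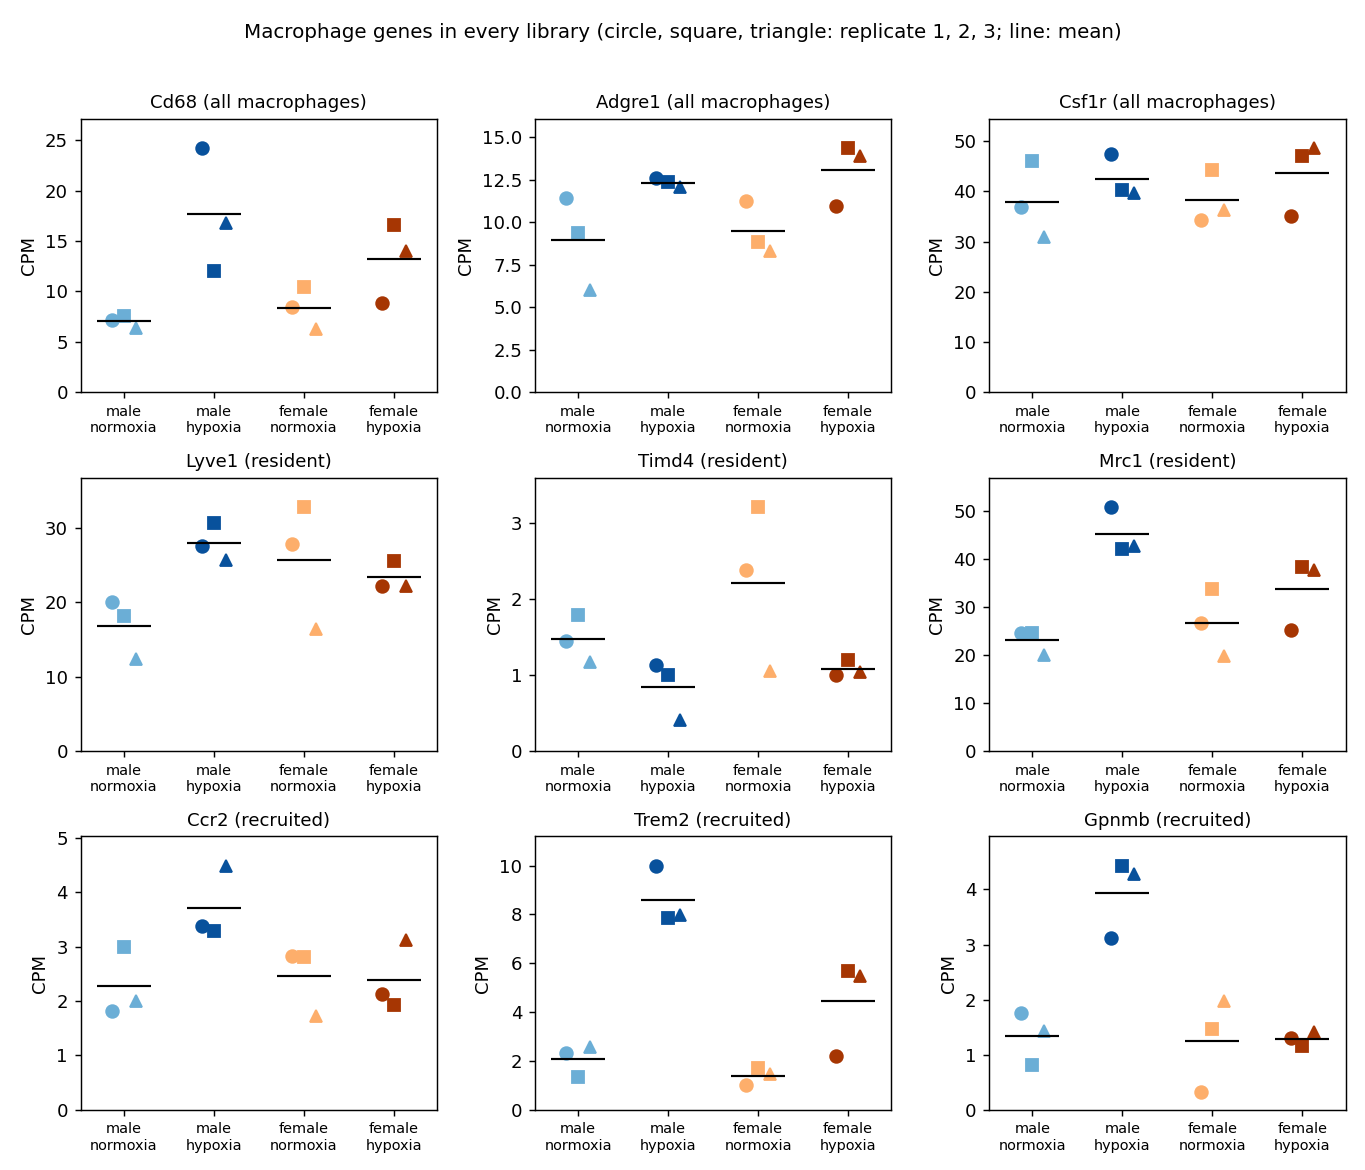
CPM (TMM-scaled, axis from 0) of the 9 genes in every library, by group; symbols mark replicates 1 to 3 and lines the group means (n = 3). Trem2 in hypoxic males sits between 7.86 and 9.998 CPM, above all other libraries, whereas Csf1r overlaps between all groups.

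The general macrophage genes did not move to the same degree. Cd68 encodes a glycoprotein of late endosomes and lysosomes that macrophages carry in large amounts. Its level was 7.17, 7.56 and 6.35 CPM in normoxic males (replicates 1 to 3) and 24.2, 12.1 and 16.8 CPM in hypoxic males. In females it was 8.44, 10.4 and 6.23 CPM in normoxia and 8.88, 16.6 and 14.1 CPM in hypoxia. All hypoxic males lay above all normoxic males, and the female groups overlapped, with female hypoxia replicate 1 between the normoxic values. Cd68 rose 1.99-fold on average (log2 0.99 ± 0.20, SE, adjusted p = 0.00514) and 2.51-fold in males (log2 1.33 ± 0.29, adjusted p = 0.0132). The female difference was 0.66 ± 0.29 (adjusted p = 0.182). In males the call was lost without male normoxia replicate 3 (log2 1.26, adjusted p = 0.0528) and without male hypoxia replicates 2 and 3 (1.79, adjusted p = 0.0613).

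Adgre1 encodes F4/80, the surface receptor by which mouse macrophages are usually recognised. It stood at 11.4, 9.36 and 6.02 CPM in normoxic and 12.6, 12.3 and 12.04 CPM in hypoxic males. The female values were 11.3, 8.83 and 8.32 CPM in normoxia and 10.95, 14.4 and 13.9 CPM in hypoxia. The hypoxic males clustered tightly, just above the highest normoxic male, and 1 hypoxic female lay below 1 normoxic female. The average rise was 1.38-fold (log2 0.46 ± 0.15, adjusted p = 0.038), and the male and female estimates were 0.46 ± 0.21 each (adjusted p = 0.154 and 0.199). Leaving out 1 library moved the male estimate to between 0.246 (without male normoxia replicate 3) and 0.675 (without male normoxia replicate 1), and the female one to between 0.379 and 0.613. The average call was kept in 11 of 25 alternatives. Of the 12 fits that left out 1 library it held in 3, those without replicate 1 of male normoxia, female normoxia or female hypoxia, and the adjusted p of the other nine reached 0.0902.

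Csf1r encodes the receptor for the growth factors CSF1 and IL-34, on which macrophage survival depends. Males had 36.8, 46.0 and 30.8 CPM in normoxia and 47.5, 40.3 and 39.7 CPM in hypoxia. Females had 34.3, 44.3 and 36.3 CPM in normoxia and 35.0, 47.1 and 48.6 CPM in hypoxia. The groups overlapped in both sexes. The average log2 difference was 0.18 ± 0.12 (adjusted p = 0.294), with 0.16 ± 0.17 in males and 0.19 ± 0.17 in females. With 1 library left out the male difference ran from 0.0361 to 0.328 and the female one from 0.101 to 0.33. Set against Csf1r within each library, Cd68 lay at a log2 difference of -2.40 ± 0.17 in normoxic and -1.31 ± 0.39 in hypoxic males (SD, n = 3), and at -2.20 ± 0.28 and -1.75 ± 0.23 in normoxic and hypoxic females. The male groups were separate on this scale. The female groups were so only narrowly, with a highest normoxic value of -2.01 and a lowest hypoxic value of -1.964. Trem2 also lay higher in hypoxia without overlap in both sexes on this scale. Timd4 lay lower in both, in females by a lowest normoxic value of -4.967 against a highest hypoxic value of -4.968. How many of all genes separate on this scale was not counted.

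**Figure D2:**
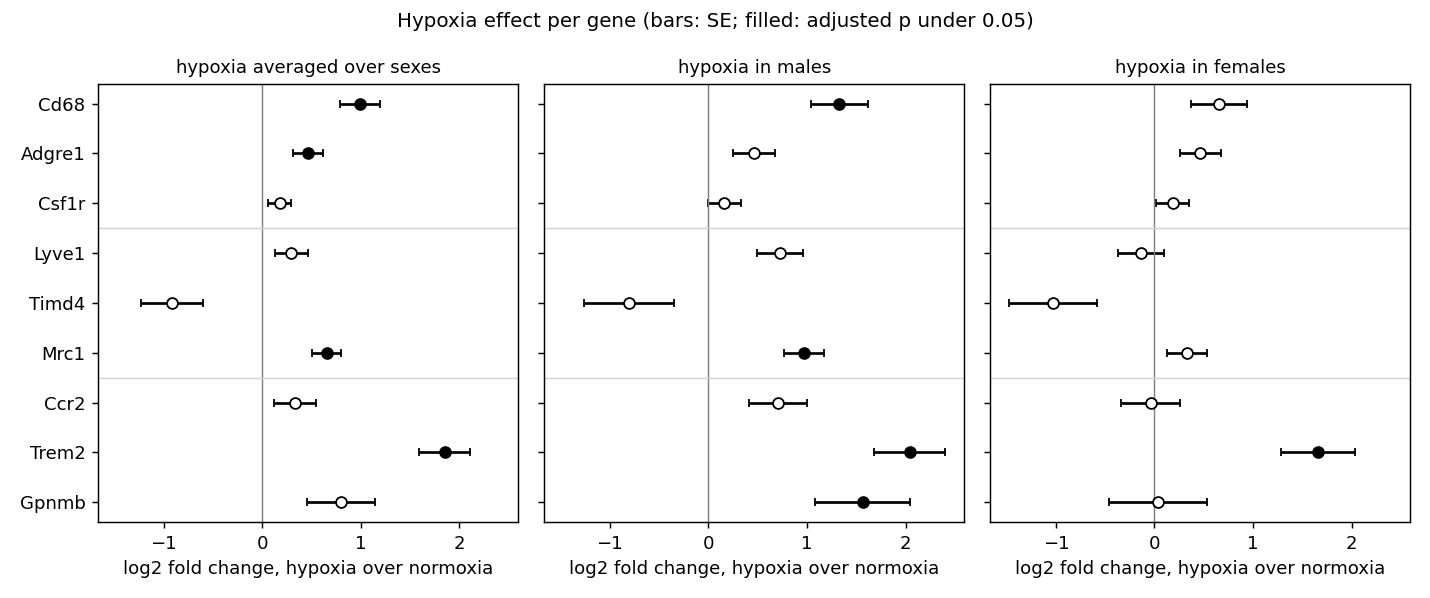
Log2 fold change of hypoxia over normoxia with its SE for the 9 genes, averaged over sexes, in males and in females; filled points have an adjusted p under 0.05. Trem2 is filled in all 3 panels, at 1.85, 2.04 and 1.66, and Timd4 is the gene on the left of 0 in all 3.

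The resident genes went different ways. Mrc1 encodes the mannose receptor CD206, an endocytic receptor abundant on macrophages of resting tissue. In males it was 24.7, 24.7 and 19.9 CPM in normoxia and 50.9, 42.2 and 42.7 CPM in hypoxia. Normoxic females had 26.7, 33.9 and 19.8 CPM and hypoxic females 25.2, 38.4 and 37.7 CPM. Every hypoxic male was well above every normoxic library of either sex, whereas female hypoxia replicate 1 stayed within the normoxic range. Mrc1 rose 1.57-fold on average (log2 0.65 ± 0.14, adjusted p = 0.00711) and 1.96-fold in males (0.97 ± 0.20, adjusted p = 0.0115). In females the difference was 0.33 ± 0.20 (adjusted p = 0.333). The male call was lost without male hypoxia replicates 2 and 3 (log2 1.14, adjusted p = 0.144). Without these and female hypoxia replicate 3 the average call was lost too (0.685, adjusted p = 0.094).

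Lyve1 encodes a hyaluronan receptor of resident macrophages along vessels and of lymphatic endothelium. Normoxic males had 20.1, 18.1 and 12.3 CPM and hypoxic males 27.5, 30.7 and 25.6 CPM, with no overlap. Normoxic females had 27.8, 32.8 and 16.3 CPM, which enclosed the hypoxic values of 22.2, 25.6 and 22.2 CPM. The differences did not pass: 0.30 ± 0.16 on average (adjusted p = 0.197), 0.73 ± 0.23 in males (adjusted p = 0.0549) and -0.14 ± 0.23 in females (adjusted p = 0.754). The male difference passed in 6 of 26 alternatives, among them DESeq2 (0.73, adjusted p = 0.0207) and without female normoxia replicate 2 or 3 (0.73 in each, adjusted p = 0.0459 and 0.0122).

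Timd4 encodes TIM-4, a receptor for phosphatidylserine on dying cells that marks long-lived resident macrophages. It was read from few counts, 8 to 55 per library. Normoxic males had 1.45, 1.80 and 1.17 CPM and hypoxic males 1.13, 1.00 and 0.408 CPM. Normoxic females had 2.38, 3.22 and 1.05 CPM and hypoxic females 1.01, 1.21 and 1.04 CPM. All hypoxic males lay below all normoxic males, and in females the third normoxic library lay among the hypoxic ones. The average log2 difference of -0.92 ± 0.32 just missed the threshold (adjusted p = 0.0514), and so did not count as a fall. Males (-0.81 ± 0.46, adjusted p = 0.246) and females (-1.03 ± 0.44, adjusted p = 0.18) did not pass either. With 1 library left out the male value lay between -1.051 and -0.47 (without male hypoxia replicate 3) and the female value between -1.365 and -0.658 (without female normoxia replicate 2). It passed with DESeq2 (-0.92, adjusted p = 0.033), and without male hypoxia replicate 1 (-1.04, adjusted p = 0.0455) or female normoxia replicate 3 (-1.09, adjusted p = 0.013).

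Lyve1 and Mrc1 are also expressed by lymphatic endothelium. The 6 lymphatic markers summed to 88.88 to 117.9 CPM in male normoxia, 78.46 to 119.1 in male hypoxia, 92.12 to 107.5 in female normoxia and 89.11 to 103.4 CPM in female hypoxia, with none at 0 in any group. Of the 6, 2 rose and 1 fell in the average contrast, beside 15.0% and 12.9% of all genes. In males 1 rose and 1 fell, beside 8.47% and 7.10% of all genes. The genes within the list went different ways. Prox1, a factor of lymphatic endothelium and a large part of the sum, fell from 47.4 ± 7.55 to 31.9 ± 1.38 CPM in males (log2 -0.57 ± 0.16, adjusted p = 0.0328). The surface glycoprotein gene Pdpn rose there from 3.83 ± 0.69 to 8.53 ± 2.27 CPM (1.16 ± 0.29, adjusted p = 0.022). Whether the reads of Prox1 and Pdpn came from lymphatic cells alone was not tested. The part of lymphatic cells in the levels of Mrc1 and Lyve1 was not tested either.

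Among the recruited genes Trem2 gave the largest change of all members. Normoxic males had 2.33, 1.36 and 2.59 CPM and hypoxic males 9.998, 7.86 and 7.96 CPM. In females normoxia gave 1.03, 1.70 and 1.48 CPM, and hypoxia 2.19, 5.70 and 5.47 CPM. Within each sex every hypoxic library was above every normoxic one, which held for no other member. Absence of overlap within each sex in the same direction held for 14.7% of all genes. Trem2 rose 3.61-fold on average (log2 1.85 ± 0.26, adjusted p = 0.000876), 4.11-fold in males (2.04 ± 0.36, adjusted p = 0.00613) and 3.16-fold in females (1.66 ± 0.37, adjusted p = 0.0305).

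The average rise of Trem2 was called in 25 of 25 alternatives, with log2 values from 1.73 to 2.21. The female call was kept in 17 of 26 and was lost, for example, when only the female libraries were fitted (1.66, adjusted p = 0.115) and without male hypoxia replicates 2 and 3 (1.66, adjusted p = 0.0594). It was also lost when female normoxia replicate 1 or 2 (1.49 and 1.82, adjusted p = 0.0877 and 0.0757) or female hypoxia replicate 2 or 3 (1.45 and 1.49, adjusted p = 0.128 and 0.136) was left out. The male call was lost without male hypoxia replicates 2 and 3 (2.26, adjusted p = 0.114). The mean effective length of the Trem2 transcripts that the reads were assigned to was 1037 and 949.1 bases in normoxic and hypoxic males and 1196 and 987.6 bases in normoxic and hypoxic females. With these lengths as offsets the average rise was 2.06 (adjusted p = 0.0019).

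Gpnmb encodes a transmembrane glycoprotein of lysosome-rich macrophages and of pigment cells. Its level was 1.76, 0.816 and 1.42 CPM in normoxic and 3.11, 4.43 and 4.28 CPM in hypoxic males. Females had 0.322, 1.46 and 1.97 CPM in normoxia and 1.30, 1.15 and 1.41 CPM in hypoxia. The 3 hypoxic males were above all other 9 libraries, and the hypoxic females lay within the normoxic female range. Gpnmb rose 2.96-fold in males (log2 1.57 ± 0.48, adjusted p = 0.0493). The female difference was 0.03 ± 0.50 (adjusted p = 0.978) and the average 0.80 ± 0.35 (adjusted p = 0.105). The male call lay close to the threshold and was kept in 10 of 26 alternatives, and of the 12 fits that left out 1 library it held in those without female normoxia replicate 1 or 3 (highest adjusted p of the others 0.146). Without female normoxia replicate 3 the average passed (1.04, adjusted p = 0.0418).

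Of the 6 pigment cell markers, 3 were expressed enough to be tested. Of these, 1 fell in the average contrast, beside 12.9% of all genes. Their sum, mostly Mitf, was 32.45 to 40.93 CPM in normoxic and 31.47 to 33.93 CPM in hypoxic males, and 38.65 to 40.12 and 30.4 to 35.16 CPM in normoxic and hypoxic females. The other markers are less abundant: Dct had 29 to 166 counts per library and Tyr 4 to 18, beside 429 to 629 for Mitf. These were the 3 tested markers, and none was called in males (median log2 fold change -0.222). The rest of the list was sparser still. Mlana had 0, 13 and 24 counts in male hypoxia replicates 1 to 3 and 0 in all other libraries. Tyrp1 had 0, 3 and 1 counts there and likewise 0 in all other libraries, and Pmel had at most 10 in any library. Mlana and Tyrp1 were thus read only in male hypoxia replicates 2 and 3, where Gpnmb was at 4.43 and 4.28 CPM, and Gpnmb stood at 3.11 CPM in male hypoxia replicate 1, where both were at 0. The part of pigment cells in the rise of Gpnmb was not tested.

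Ccr2 encodes the receptor for CCL2 and its relatives that draws monocytes out of bone marrow and into tissue. Normoxic males had 1.82, 2.99 and 2.01 CPM and hypoxic males 3.38, 3.29 and 4.49 CPM. Females ranged from 1.73 to 2.83 CPM in normoxia and from 1.92 to 3.12 CPM in hypoxia. Males separated and females did not, and no contrast passed: 0.33 ± 0.21 on average (adjusted p = 0.256), 0.70 ± 0.30 in males (adjusted p = 0.124) and -0.04 ± 0.30 in females (adjusted p = 0.958). Estimated counts of Ccr2 were not whole numbers (by over 0.001) in 12 of 12 libraries. Part of its reads was therefore shared out between transcripts of more than 1 gene, and its level is less certain for that. The same held in 7 libraries for Csf1r, 6 for Gpnmb and 1 for Lyve1.

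No overlap between hypoxia and normoxia was seen for 8 of the 9 members in males: 7 lay above, Timd4 lay below, and Csf1r overlapped. Over all genes 21.5% lay above and 19.8% below in males. In females Trem2 lay above and none lay below, beside 13.3% and 12.7% of all genes.

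The test of whether the hypoxia effect differed between the sexes called none of the 9 members by edgeR, and none by DESeq2. Over all genes it called 1 gene, or 0.00716%. At an unadjusted edgeR p under 0.05 there were 3 members, beside 6.79% of all genes, each with a smaller female effect: Lyve1 (female minus male log2 difference -0.87 ± 0.33, adjusted p = 0.715), Mrc1 (-0.64 ± 0.28, adjusted p = 0.73) and Gpnmb (-1.53 ± 0.69, adjusted p = 0.73). The male calls without a female call are therefore not shown to differ between the sexes.

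Direct comparison of females with males also called no member, by edgeR or DESeq2. In hypoxia 0.150% of all genes were called, and 2 members had an unadjusted edgeR p under 0.05, beside 9.63% of all genes. Gpnmb was lower in hypoxic females by a log2 difference of -1.61 ± 0.48 (adjusted p = 0.291), with all 3 female libraries below all 3 male ones. Trem2 differed by -0.95 ± 0.35 (adjusted p = 0.398), again with no overlap. In normoxia 0.0716% of all genes were called and 7.29% had an unadjusted p under 0.05. Lyve1 was the 1 member among these, at 0.61 ± 0.23 higher in females, with the groups overlapping (adjusted p = 0.676).

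Levels of different genes were compared in TPM, the deposited abundance, which divides by transcript length. In normoxic males the order was Csf1r (5.58 ± 1.36 TPM, SD, n = 3), Cd68 (3.84 ± 0.47), Lyve1 (3.41 ± 0.85), Mrc1 (2.80 ± 0.30), Adgre1 (1.60 ± 0.49), Trem2 (1.07 ± 0.32), Timd4 (0.410 ± 0.105), Ccr2 (0.332 ± 0.105) and Gpnmb (0.205 ± 0.067). Neighbours differed beyond their summed SDs at 2 steps, from Mrc1 to Adgre1 and from Trem2 to Timd4. In hypoxic males Cd68 led with 13.1 ± 2.66 TPM, before Csf1r (8.24 ± 0.74), Lyve1 (7.58 ± 1.56), Mrc1 (7.52 ± 0.96), Trem2 (6.42 ± 0.66), Adgre1 (2.94 ± 0.35), Gpnmb (0.824 ± 0.236), Ccr2 (0.793 ± 0.150) and Timd4 (0.313 ± 0.145). Here Csf1r, Lyve1, Mrc1 and Trem2 each lay within the summed SDs of the next, as did Gpnmb and Ccr2, whereas Cd68 lay above Csf1r and Trem2 above Adgre1 beyond them. Trem2, within the spread of Adgre1 in normoxic males, stood above it in hypoxic males.

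In normoxic females the order ran from Csf1r (6.09 ± 1.00 TPM), Lyve1 (5.67 ± 1.99) and Cd68 (5.41 ± 0.80) over Mrc1 (3.46 ± 1.02) and Adgre1 (1.84 ± 0.32) to Trem2 (0.693 ± 0.208), Timd4 (0.675 ± 0.347), Ccr2 (0.435 ± 0.146) and Gpnmb (0.210 ± 0.139). Csf1r, Lyve1 and Cd68 lay within their summed SDs of each other, and so did Trem2, Timd4, Ccr2 and Gpnmb from one to the next. In hypoxic females Cd68 (9.27 ± 3.22) and Csf1r (8.12 ± 1.90) led, Lyve1 (5.94 ± 0.65) and Mrc1 (5.26 ± 1.67) followed, and then Trem2 (3.21 ± 1.71) and Adgre1 (2.96 ± 0.59). Each of these lay within the summed SDs of the next. Ccr2 (0.501 ± 0.108), Timd4 (0.380 ± 0.049) and Gpnmb (0.252 ± 0.039) were lower, and of these Timd4 and Gpnmb were apart. On the log2 TPM scale the median of all genes was itself 0.302 higher in hypoxia than on the CPM scale (0.393 in males and 0.209 in females), so rises between groups are larger in TPM throughout.

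**Figure D3:**
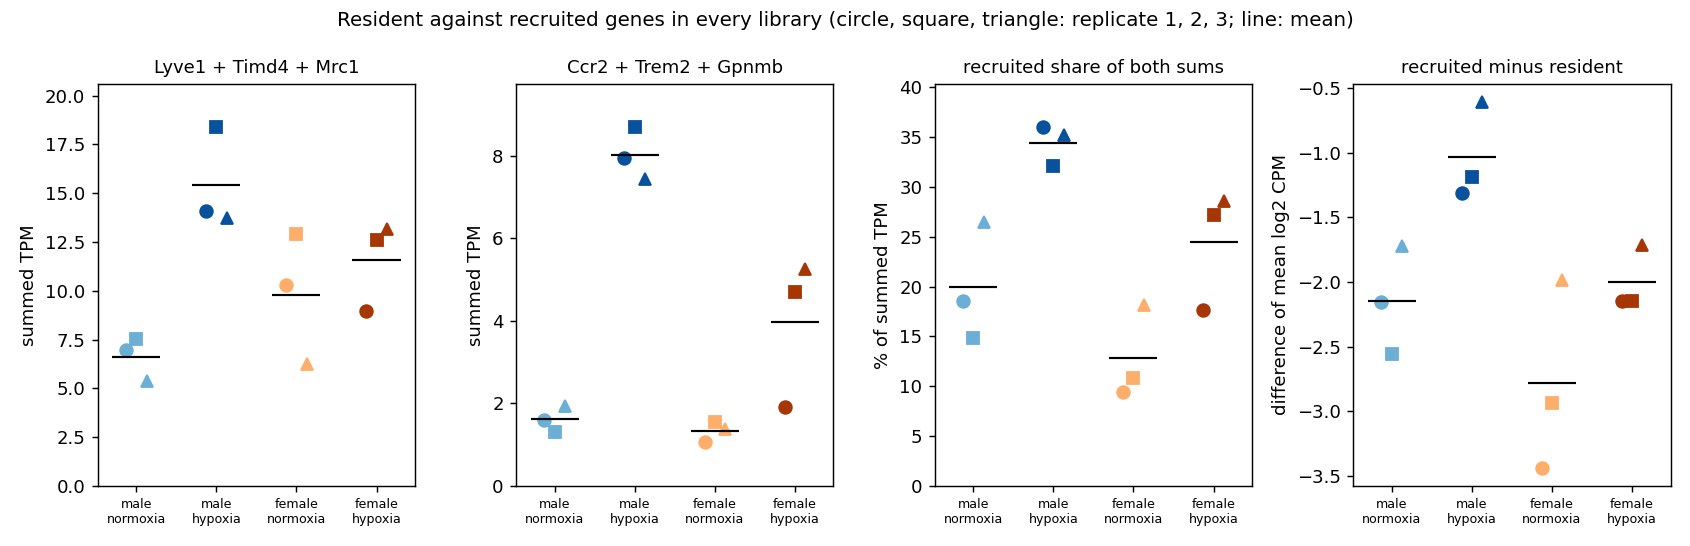
Summed TPM of the resident genes (Lyve1, Timd4, Mrc1) and of the recruited genes (Ccr2, Trem2, Gpnmb), the recruited share of both sums in percent, and the mean log2 CPM of recruited minus resident genes, in every library by group; lines are means (n = 3). Hypoxic males have the highest recruited sums, 7.45 to 8.71 TPM, and normoxic females hold the lowest balances, down to -3.44.

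Set against each other in summed TPM, both gene groups were higher in hypoxic than in normoxic males, on a scale where the median of all genes moved too. The sums do not speak for each gene: in males the test called Mrc1 of the resident and Trem2 and Gpnmb of the recruited genes, and Timd4 lay lower in hypoxia. The summed resident TPM was 6.96, 7.51 and 5.38 in normoxic and 14.1, 18.4 and 13.7 in hypoxic males. The summed recruited TPM was 1.59, 1.31 and 1.93 in normoxic and 7.95, 8.71 and 7.45 in hypoxic males. The recruited share of both sums was thus 18.6, 14.8 and 26.4% in normoxic and 36.0, 32.1 and 35.2% in hypoxic males, with no overlap. Trem2 made up most of the recruited sum, as its TPM values show.

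In females the resident sums overlapped, at 10.3, 12.9 and 6.25 TPM in normoxia and 8.98, 12.6 and 13.2 TPM in hypoxia. The recruited sums did not, at 1.07, 1.56 and 1.39 TPM in normoxia and 1.92, 4.70 and 5.26 TPM in hypoxia. The recruited share was 9.43, 10.8 and 18.2% in normoxia and 17.6, 27.2 and 28.6% in hypoxia. Female normoxia replicate 3, which had the lowest Lyve1, Timd4 and Mrc1 of its group, lay just above hypoxia replicate 1.

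On the log2 CPM scale the mean of the recruited genes minus that of the resident genes was -2.14 ± 0.41 in male normoxia and -1.04 ± 0.38 in male hypoxia (SD, n = 3). It was -2.79 ± 0.74 in female normoxia and -2.003 ± 0.25 in female hypoxia. Hypoxia minus normoxia was 1.11 in males, 0.782 in females and 0.945 in the mean of both. Because the genes were chosen with earlier results known, this score has no test. The female value was 0.457 without female normoxia replicate 1 and 1.18 without female normoxia replicate 3. Without Timd4, which was lower in hypoxia, the mean difference was 0.508 (0.555 in males and 0.461 in females), so its size rests in large part on that sparsely counted gene. Leaving out 1 library at a time gave 0.783 to 1.15. On the recruited side the female means were uneven. From normoxia to hypoxia, mean log2 CPM in females went from 0.576 to 2.07 for Trem2. It went from 0.175 to 0.483 for Gpnmb and from 1.33 to 1.30 for Ccr2. The female difference thus leaned on Trem2, and the score without Trem2 was not computed.

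Signals that call macrophages in were examined next. Of the 6 ligands of CSF1R and CCR2, 4 rose in the average contrast and none fell, with a median log2 fold change of 0.88. Over all genes tested, 15.0% were called higher and 12.9% lower. The chemokine gene Ccl8 rose by 2.36 ± 0.43 (adjusted p = 0.00296), with 0.545 ± 0.372 and 6.37 ± 0.90 CPM in normoxic and hypoxic males and 0.617 ± 0.440 and 1.39 ± 0.46 CPM in the female groups (SD, n = 3). Ccl2, whose product is the main ligand of CCR2, rose by 1.27 ± 0.27 (adjusted p = 0.00656), with 2.21 ± 1.00 and 8.12 ± 3.60 CPM in the male groups and 3.13 ± 0.77 and 4.97 ± 0.42 CPM in the female groups. Ccl12, a mouse chemokine close to Ccl2, rose by 1.06 ± 0.26 (adjusted p = 0.0109). Its level was 1.13 ± 0.22 and 4.89 ± 1.68 CPM in normoxic and hypoxic males, against 1.64 ± 0.73 and 1.67 ± 0.36 CPM in females.

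Il34, whose product activates CSF1R, rose by 0.70 ± 0.18 (adjusted p = 0.0153), with 3.55 ± 0.22 and 5.41 ± 1.46 CPM in males and 3.60 ± 0.45 and 6.21 ± 1.75 CPM in females. The other CSF1R ligand, Csf1, was at 46.4 ± 8.14 and 57.5 ± 5.96 CPM in males and 52.0 ± 11.4 and 52.3 ± 0.30 CPM in females (average 0.16 ± 0.12, adjusted p = 0.336). Ccl7 did not pass in the average (0.68 ± 0.26, adjusted p = 0.0697). In males 4 ligands rose, Ccl8, Ccl12, Ccl2 and Ccl7 (log2 3.55, 2.10, 1.88 and 1.67), beside 8.47% of all genes. In females none did by edgeR (1 without female hypoxia replicate 1), beside 3.97% of all genes. The Ccl genes are similar in sequence and lie close together, so reads may be split between them. Without male hypoxia replicates 2 and 3 the count of ligands was 2 in the average and 0 in males, and without female hypoxia replicate 3 as well it was 0 in both. Summed CPM of 8 endothelial and 7 fibroblast markers, cells that also make chemokines, was 1203 to 1522 and 951.5 to 1325 in hypoxic males, against 823.6 to 1002 and 699.7 to 732.5 in normoxic males. In females the endothelial sum was 1230 to 1605 in hypoxia and 934.5 to 1120 in normoxia, also without overlap, and the fibroblast sum was 657.9 to 1054 and 647.1 to 823.5. Of these, 7 endothelial and 4 fibroblast markers rose in the average contrast, beside 15.0% of all genes. The part of these cells in the ligands' rise was not tested.

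Signalling below TREM2 runs through an adaptor to the kinase SYK. Tyrobp, the adaptor's gene, was listed at 0 in all 12 libraries. An exact 0 in every library may come from the quantification, so the level of Tyrobp is taken as unknown and not as absent. Hcst, an alternative adaptor, was too low to test. Of the 4 tested members 3 rose in the average, beside 15.0% of all genes, with a median of 0.357. They were Syk (0.35 ± 0.09, adjusted p = 0.0173), the phosphatase gene Inpp5d (0.49 ± 0.13, adjusted p = 0.0189) and Apoe, whose product is a lipoprotein ligand of TREM2 (0.35 ± 0.09, adjusted p = 0.0152). Plcg2, a phospholipase acting after SYK, was at 0.37 ± 0.18 (adjusted p = 0.156). The same genes Syk, Inpp5d and Apoe rose in males (0.62, 0.64 and 0.61), beside 8.47% of all genes. In females none passed (1 without female hypoxia replicate 1), beside 3.97% of all genes called higher. None passed in the average or in males without male hypoxia replicates 2 and 3, and the average call of Inpp5d was also lost without female hypoxia replicate 3 (adjusted p = 0.0532).

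**Figure D4:**
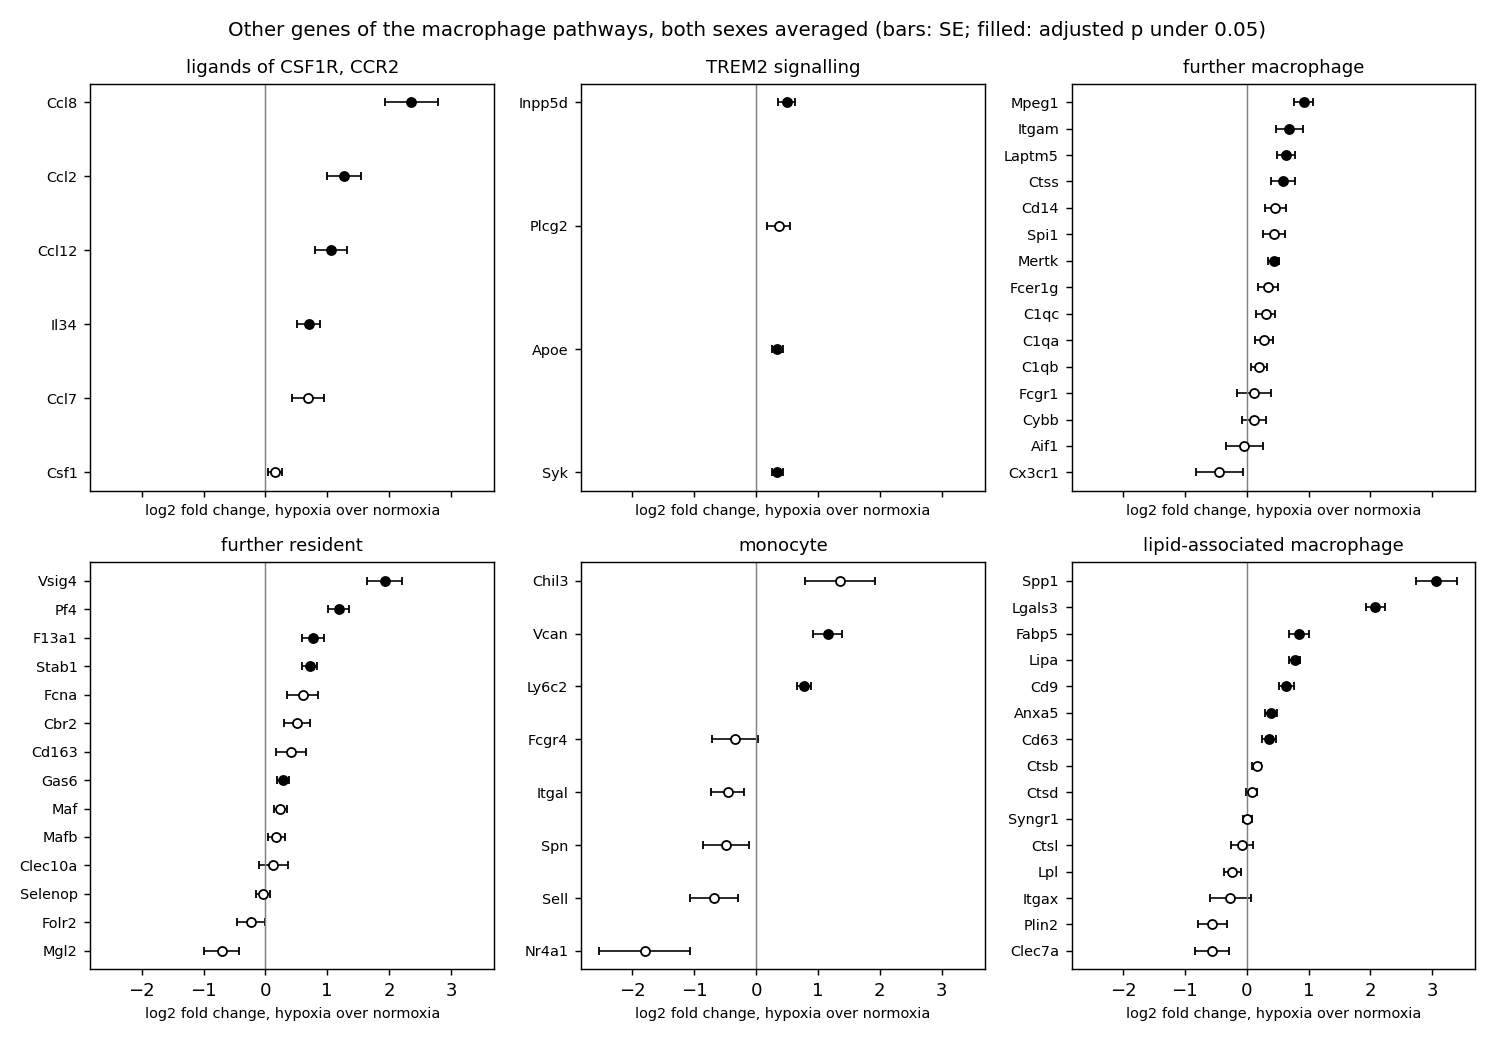
Log2 fold change of hypoxia over normoxia with its SE, averaged over sexes, for every tested gene of 6 further macrophage lists; filled points have an adjusted p under 0.05. Filled points lie on the right of 0 in each list, led by Spp1 at 3.07, Ccl8 at 2.36 and Lgals3 at 2.08, and most genes in the monocyte list are open.

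Other genes of macrophages in general were read from a longer list. Of 15, 5 rose and none fell in the average (median 0.345), beside 15.0% and 12.9% of all genes. They included Mpeg1, which encodes the pore-forming perforin-2 (0.92 ± 0.15, adjusted p = 0.00196), Mertk, a receptor for the uptake of dying cells (0.44 ± 0.09, adjusted p = 0.00666), the lysosomal membrane gene Laptm5 (0.64 ± 0.15, adjusted p = 0.0104) and the integrin gene Itgam (0.69 ± 0.21, adjusted p = 0.0318). Mpeg1 was at 11.1 ± 3.60 and 27.0 ± 1.03 CPM in normoxic and hypoxic males and at 13.8 ± 0.77 and 20.6 ± 5.11 CPM in females. The call of Itgam was kept in 15 of 25 alternatives, and leaving out 1 library ended it in 7 of 12 fits (highest adjusted p 0.0823). In males 5 of the 15 rose and in females none by edgeR, beside 8.47% and 3.97% of all genes. Without male hypoxia replicates 2 and 3 the count was 3 in the average and 0 in males, and without female hypoxia replicate 3 as well it was 0 in both. With 1 library left out it ran from 3 to 9 in the average, from 2 to 8 in males and from 0 to 2 in females, each highest without female hypoxia replicate 1.

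Further genes of resident macrophages included several that rose. Of 14 tested, 5 rose and none fell in the average, with a median of 0.35, beside 15.0% and 12.9% of all genes. The list had 4 rise in males and 1 in females, beside 8.47% and 3.97% of all genes. The complement receptor gene Vsig4 rose by 1.93 ± 0.28 (adjusted p = 0.00112), with 0.861 ± 0.385 and 5.25 ± 1.54 CPM in the male groups and 0.917 ± 0.339 and 2.22 ± 0.64 CPM in the female groups. Pf4, a chemokine of platelets and resident macrophages, rose by 1.19 ± 0.17 (adjusted p = 0.000909) and was the one that also passed in females (0.95 ± 0.24, adjusted p = 0.0414). The scavenger receptor gene Stab1 (0.71 ± 0.12, adjusted p = 0.00222) and the transglutaminase gene F13a1 (0.77 ± 0.18, adjusted p = 0.0086) rose too. Pf4 and Stab1 are also expressed by platelets and by endothelium, and the part of those cells was not tested. The female count of 1 became 0 with only the female libraries and without male hypoxia replicates 2 and 3, and it moved to between 0 and 3 in 10 of the 12 fits that left out 1 library. Without male hypoxia replicates 2 and 3 the count was 3 in the average and 2 in males, and without female hypoxia replicate 3 as well it was 2 and 0. The male count was 2 without male normoxia replicate 3 and 8 without female normoxia replicate 3.

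Of 12 monocyte genes 8 were tested. In the average 2 of the 8 rose and none fell, beside the 15.0% of all genes called higher, and the median was -0.398. Ly6c2, a surface marker of inflammatory monocytes, rose by 0.78 ± 0.11 (adjusted p = 0.00112), with 7.02 ± 0.95 and 9.36 ± 1.80 CPM in the male groups and 5.41 ± 0.48 and 11.9 ± 0.12 CPM in the female groups, and it also passed in females (1.14 ± 0.16, adjusted p = 0.00628). Vcan, a matrix proteoglycan made by monocytes and also by fibroblasts, rose by 1.16 ± 0.24 (adjusted p = 0.00548). Chil3 (1.35 ± 0.57, adjusted p = 0.0961) and Nr4a1 (-1.80 ± 0.73, adjusted p = 0.0878) did not pass. Nr4a1, a factor of patrolling monocytes that many cells also induce within minutes, was at -0.50 without female normoxia replicate 3. The 9 neutrophil markers summed to 5.33 to 10.4 CPM in normoxic and 11.4 to 27.6 CPM in hypoxic males and to 4.70 to 11.4 and 4.50 to 6.90 CPM in females, with Ly6g at no more than 3 counts. None of the 5 tested rose in the average and 1 did in males by edgeR, beside 15.0% and 8.47% of all genes. The part of neutrophils in the monocyte list was not tested. The 5 red cell markers measured, haemoglobin genes among them, all rose in the average, with a median of 3.03, and summed to 1123 to 1490 CPM in normoxic and 6859 to 8637 CPM in hypoxic males and to 1094 to 1445 and 4600 to 7710 CPM in females. How much of the rise of Ly6c2 and Pf4, genes that blood cells also carry, goes with this was not tested. The average count of monocyte genes was 1 without male hypoxia replicates 2 and 3 and female hypoxia replicate 3.

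Genes that accompany Trem2 and Gpnmb in lipid-associated macrophages included Lgals3 and Spp1. Of 15, 7 rose and none fell in the average, with a median of 0.162, beside 15.0% and 12.9% of all genes. The list had 6 rise in males and 3 in females, beside 8.47% and 3.97% of all genes. Compared directly in hypoxia, 1 of the 15 was called lower in females than in males, beside 0.150% of all genes called in either direction. Lgals3, which encodes the lectin galectin-3, rose by 2.08 ± 0.15 (adjusted p = 3.39e-05), with 3.63 ± 0.77 and 22.0 ± 3.31 CPM in the male groups and 3.45 ± 0.25 and 10.3 ± 2.62 CPM in the female groups. Spp1, the gene of the secreted protein osteopontin, rose by 3.07 ± 0.34 (adjusted p = 0.000342). It was at 0.331 ± 0.147 and 7.18 ± 0.62 CPM in males and at 0.188 ± 0.112 and 0.618 ± 0.239 CPM in females. The lysosomal lipase gene Lipa (0.78 ± 0.09, adjusted p = 0.000383) and the fatty acid binding protein gene Fabp5 (0.85 ± 0.16, adjusted p = 0.00349) rose as well. Lgals3, Lipa and Fabp5 passed in females (1.57, 0.70 and 1.07). The other members that rose were Cd9, Anxa5 and Cd63. Several of the 15 genes are also expressed by fibroblasts and muscle cells, and their part was not tested. Without male hypoxia replicates 2 and 3 the count was 4 in the average and 2 in males, and without female hypoxia replicate 3 as well it was 3 and 2, with 0 in females. With 1 library left out the female count was 1 (without female normoxia replicate 1 or female hypoxia replicate 2 or 3) to 7 (without female hypoxia replicate 1).

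Among 10900 genes at a mean log2 CPM of 1 or above, the closest to each member were found by Pearson's r of log2 CPM over the 12 libraries, which share the hypoxia contrast, library quality and depth. Mrc1 was closest to Alox5ap (r = 0.976, and 0.934 for deviations from group means), Ncf1 (0.968 and 0.942) and F13a1 (0.966 and 0.885). Cd68 was closest to Mrc1 itself (0.955 and 0.87), then Cotl1 (0.944 and 0.9) and Tnc (0.934 and 0.832). Trem2 had Snhg18 (0.965 and 0.823), Tspan17 (0.954 and 0.688) and Atox1 (0.935 and 0.759). The r of Trem2 thus dropped further than those of Mrc1 once group means were removed.

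Csf1r had Pcdhb22 (0.933 and 0.959) and Cd300c2 (0.897 and 0.909), for which the deviations gave the higher r. The closest to Adgre1 were Prmt2 (0.925 and 0.84), Zfyve1 (0.914 and 0.923) and Rgs10 (0.912 and 0.893). Ccr2 had C3ar1 (0.909 and 0.829), Slc39a1 (0.879 and 0.804) and Lyl1 (0.86 and 0.802), and Gpnmb had Slit3 (0.93 and 0.835), Fmo2 (0.908 and 0.778) and Upf2 (0.907 and 0.831). Lyve1 was closest to Tmem106a (0.886 and 0.802), Frmd4b (0.872 and 0.883) and Dync2h1 (0.848 and 0.747). For Timd4 they were Tnnt1 (0.884 and 0.768), Hemk1 (0.863 and 0.765) and Rtn4ip1 (0.857 and 0.839).

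Between the members themselves, r over the 12 libraries was highest for Cd68 with Mrc1, followed by Cd68 with Trem2 (0.837 and 0.524 for deviations) and Mrc1 with Trem2 (0.826 and 0.475). Trem2 with Gpnmb stood at 0.749 and 0.4. Timd4 ran against both, at -0.655 with Trem2 and -0.665 with Gpnmb, and the deviations gave 0.0141 and -0.415. With Lyve1 and Mrc1 the deviations of Timd4 gave 0.791 and 0.697, while the r over all libraries was 0.181 and -0.269. Lyve1 with Mrc1 had 0.763 and 0.742, so the deviations of the 3 resident genes ran in 1 direction. This was not particular to them. Between general and resident genes the deviations gave 0.338 (Adgre1 with Timd4) to 0.87 (Cd68 with Mrc1).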

How the data were processed

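Ventricular RNA in 12 mouse heart samples was sequenced with a directional mRNA kit, per the labels' protocols. Per the submitters' processing notes, FastQC and Salmon were used and the build was GRCm39, with versions, annotation and strand setting not given in the sources used here. The table deposited by the authors holds, by its header, an estimated count, an abundance in TPM and an effective transcript length per gene and library, with counts not scaled from abundance. The authors' TPM summed to 889905 to 926060 per library. There were 0 columns of no sample.

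Estimated counts were rounded. Symbols were found for 99.3% of 39210 genes, from an annotation of another build used for names only. filterByExpr kept 13960 genes. edgeR 4.0.16 (R 4.3.3), with TMM factors, fitted 4 group means to 12 libraries (8 residual degrees of freedom). glmQLFTest gave two-sided tests, and p-values were adjusted by Benjamini-Hochberg over all genes, with a threshold of 0.05. SE is the log2 fold change divided by the root of F. log2 CPM used a prior count of 2. The fit was tested on simulated data. Members, lists and motifs were chosen with earlier results of these data known. Named genes were all 9 members, up to 4 genes per pathway list with the smallest p in the average contrast, all 6 ligands, and the 3 genes most like each member, of which 1 for Csf1r is not reported here. Alternatives were DESeq2 1.42.0, limma 3.58.1 (voom, and log2 TPM with a pseudocount of 0.1), other scalings and filters, length offsets, a replicate block and left-out libraries, 1 of these fits added after the data were seen.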

Additional observations from a re-analysis of the deposited data

How the results depend on the processing

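Members called in the average contrast numbered 4, against 8 with limma on log2 TPM, where the median of all genes moved by 0.302 and 93.9% of calls were higher (53.9% by edgeR on counts). It was 2 without male hypoxia replicates 2 and 3 and female hypoxia replicate 3, a fit added after the data were seen, which gave 0 in males and 0 in females. Leaving out 1 library gave 3 to 5. In males the 4 became 7 on log2 TPM, 0 without male hypoxia replicates 2 and 3, 1 without female normoxia replicate 3 as well, and 2 (without male normoxia replicate 3) to 5 with 1 library left out. In females the 1 became 0 with limma voom, with only the compared libraries and without male hypoxia replicates 2 and 3, and 0 to 1 with 1 library left out. Without those and female normoxia replicate 3 it was 1, but Timd4 (-1.37, adjusted p = 0.0437, lower) in place of Trem2. Other counts of members stayed within 1.5 times, and the sex comparisons and the difference between the sexes had 0 calls under each alternative. Cd68 and Trem2 in the average were called under all 25, and Mrc1 under 24. The recruited minus resident difference of 0.945 ranged from 0.508 (without Timd4) to 1.15.

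Values that changed sign belonged to results that did not pass in the main fit. The female minus male difference of Adgre1 was -0.0253 with voom, -0.00758 with length offsets, -0.227 on log2 TPM, -0.00065 with the replicate block, -0.0301 without male hypoxia replicates 2 and 3, -0.115 without female normoxia replicate 3 as well, -0.0589 in the added fit, and -0.206 to 0.223 with 1 library left out. That of Csf1r was -0.183 on log2 TPM, -0.141 and -0.18 in the fits without those libraries, -0.209 in the added fit, and -0.142 to 0.166 with 1 left out. For Timd4 it was 0.0422 with voom and -0.558 to 0.147 with 1 left out. In females the hypoxia difference was 0.127 (Lyve1) and 0.192 (Ccr2) on log2 TPM, and with 1 library left out -0.381 to 0.0777 (Lyve1), -0.279 to 0.0982 (Ccr2) and -0.409 to 0.51 (Gpnmb, -0.0339 in the added fit). Plcg2 in the average was -0.0435 without male hypoxia replicates 2 and 3 and female normoxia replicate 3. With limma on log2 TPM it was 0.638 and passed (adjusted p = 0.039). The causes were not tested.

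Over all genes 3896 were called in the average, 2174 in males and 836 in females. These became 1295, 66 and 457 without male hypoxia replicates 2 and 3 and 445, 39 and 18 in the added fit, the male count was 877 without male hypoxia replicate 3, and the female count was 40 with only the compared libraries and 55 (without female hypoxia replicate 3) to 2081 (without female hypoxia replicate 1) with 1 left out. Replicate numbers were not used to pair the samples in the main fit. Same-numbered libraries had correlations of -0.0454 to 0.186 between their deviations from group means, and other pairs -0.138 to 0.0879. Of the 12 libraries, 9 correlated best with a library of their own number, so these values do not settle whether the numbers pair the samples. With the replicate block 5 members were called in the average (4 higher and, with Timd4 at -0.88, 1 lower), 4 in males, where Lyve1 (0.754, adjusted p = 0.0186) was called in place of Gpnmb (1.54, adjusted p = 0.0659), 1 in females, and 3931 genes in all. The female call among the further resident genes was lost with the block. Counts under 60 per library for Timd4, and similar ones for Ccr2 and Gpnmb, limit the precision of these genes. Trem2 had 16 to 40 counts in the normoxia libraries and 37 in female hypoxia replicate 1, so its fold changes carry this limit too.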
